A study of Drosophila melanogaster with 48 samples.

Results

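The UDP-glycosyltransferase (*Ugt*) genes of *D. melanogaster* were taken as all genes in the deposited count table whose FlyBase symbol is *Ugt* followed by a digit. There were 35 such genes among 13957, and each had at least 1 count in the 47 libraries used. Expression was measured by RNA sequencing of heads in 12 lines, on standard food and on food with 75 mM menadione sodium bisulfite (MSB), a source of oxidative stress. Each library was made from 60 whole heads, taken from living males that were aged 5 to 7 days when exposure began. Under MSB stress there were 2 libraries each of the deletion lines M12D3, M9D3, C2D3, and KL01 and of the nondeletion lines M12N3, C2N1, and KL02, 1 of the nondeletion line M9N1, 3 each of ZI254 and ZI273, and 1 each of ZI197 and ZI418. Each of the 12 lines had 2 control libraries, which gives 23 stress and 24 control libraries. Another stress library of M9N1, which lay far from all others in a principal component analysis, was left out. A deletion line carries a deletion in the 3′ UTR of the metallothionein gene *MtnA*. M12 and M9 come from Munich, Germany, C2 from Nicosia, Cyprus, KL from Kuala Lumpur, Malaysia, and ZI from Siavonga, Zambia, where all 4 lines lack the deletion. M12, M9, and C2 each consist of a pair of nearly isogenic lines bred from 1 isofemale line, while KL01 and KL02 are separate isofemale lines. The paper reports that the M9 pair kept far more sequence differences than the M12 and C2 pairs, so M9D3 and M9N1 differ at other loci as well. The Zambian lines were exposed for 18 to 20 h and the other 8 lines for 24 h. The methods describe the replicates as biological, each with its own heads, and p-values take these libraries as the units. In the fit over all lines with treatment as the only term, the spread also includes differences between lines. For the range and genotype terms the libraries, not the lines, are the replicates.

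UDP-glycosyltransferases are enzymes of the endoplasmic reticulum membrane that transfer a sugar from a UDP-sugar, in insects mainly glucose, to small lipophilic molecules. The product is more soluble in water and can be exported from the cell, which makes the family part of the detoxification of plant toxins, insecticides, and internal compounds. In mammals, menadione is reduced to a hydroquinone that is conjugated with glucuronic acid or sulfate. The substrates of most *Drosophila* members are not known. Among the members with a described role, *Ugt35B1* was found as a gene of the antenna, *Ugt36E1* takes part in the detection of sex pheromones, and *Ugt35C1* (also named *Ugt86Dd*) contributes to nicotine resistance.

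Total counts were between 29414147 and 53939743 in the stress libraries and between 27223075 and 63358011 in the controls. Levels are given as CPM, counts scaled to a common library total after adjustment by the TMM method. The 5 photoreceptor markers summed to between 34700 and 76800 CPM under stress and to between 38900 and 64800 CPM in the controls. Antennal markers were low, with a mean of 5.10 CPM of the odorant co-receptor gene *Orco* under stress and 4.52 CPM in the controls. By their line-specific expression, 22 of 23 stress libraries resembled their own line's controls most, and the exception, M12N3 replicate 2, was nearest to its near-isogenic partner M12D3 (r = 0.511, against 0.510 for its own line). The members together held 0.0664 to 0.137% of the counts of a stress library (median 0.0975%) and 0.0516 to 0.0914% of those of a control library (median 0.0787%). In each of the 12 lines this share had a higher mean under stress.

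The 35 genes are spread over chromosome arms 3R (17 genes), 2L (11), 2R (5), and 3L (2), and positions are those of the Release 6 assembly. Most lie in runs of neighbours. The longest run, at 11151026 to 11177910 on 3R, holds 9 members (*Ugt302K1*, *Ugt302E1*, *Ugt302C1*, *Ugt35E1*, *Ugt35E2*, *Ugt35B1*, *Ugt35A1*, *Ugt304A1*, and *Ugt303A1*), and *Ugt35C1* lies to one side of it at 11126597 to 11128328. Other runs are *Ugt37C2*, *Ugt37E1*, and *Ugt37D1* (2L, 16794211 to 16801584), *Ugt36F1*, *Ugt36D1*, and *Ugt36E1* (2L, 18819344 to 18829059), *Ugt49B1* and *Ugt49C1* (2R, 21212880 to 21217779), *Ugt37A2* and *Ugt37A3* (3R, 12739642 to 12743680), and *Ugt303B3*, *Ugt303B1*, and *Ugt303B2* (3R, 23532945 to 23538908). The sources used here do not state how reads that match several genes were counted, so the split of reads between neighbouring copies is uncertain. Exons of *Ugt36A1*, *Ugt49B1*, *Ugt36E1*, and *Ugt307A1* share 400, 90, 48, and 11 bases with a gene on the opposite strand, and the treatment of strand is not stated either.

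Levels in the heads spanned several orders of magnitude. The control mean was above 10 CPM for 13 members, between 1 and 10 CPM for 6, and lower for 16, of which 8 were under 0.1 CPM. Per kb of exon, which allows genes to be compared, *Ugt35B1* was highest in the controls at 107.5 CPM per kb, followed by *Ugt35C1* (57.2), *Ugt49B1* (42.5), and *Ugt302C1* (34.5). These 4 genes held 54.2% of the CPM of all members in the controls. Under stress the order changed, with *Ugt35C1* at 125 CPM per kb, *Ugt49B1* at 81.8, *Ugt49C1* at 70.3, *Ugt35B1* at 59.7, and *Ugt302C1* at 47.1. At the other end, *Ugt303B3*, *Ugt35D1*, *Ugt303B1*, *Ugt303B2*, and *Ugt49B2* were at or near 0 in both treatments. *Ugt49B2* had 1 count in all stress libraries together and 1 in all control libraries together.

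**Figure D1:**
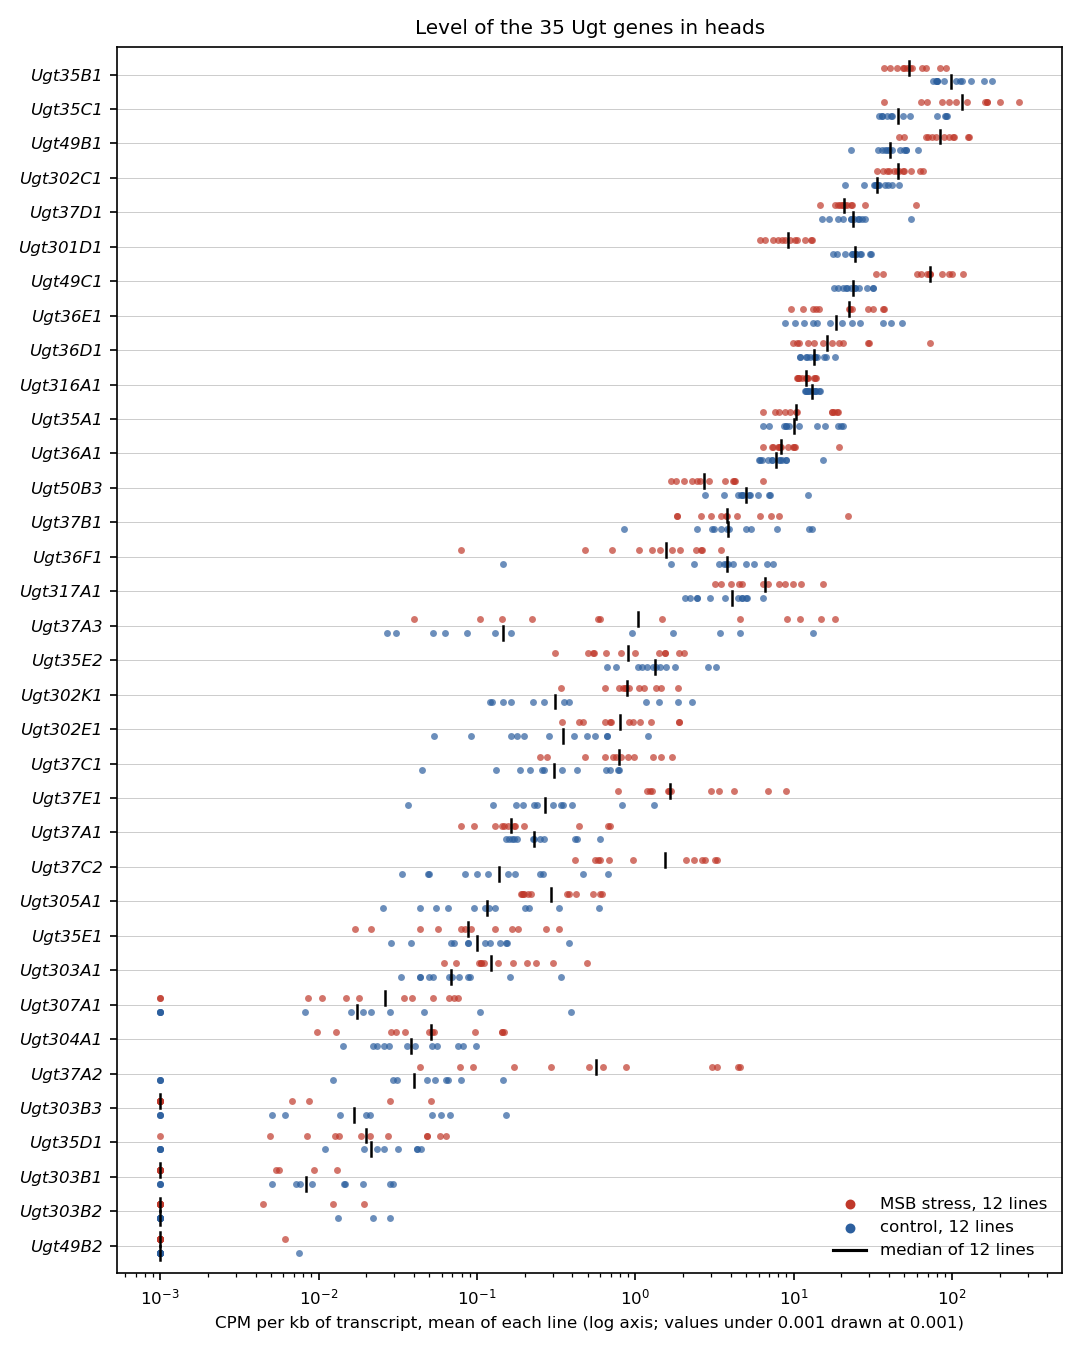
Level of each of the 35 *Ugt* genes as CPM per kb of exon on a log axis, with 1 point for the mean of each of the 12 lines under MSB stress (red, upper row) and in controls (blue, lower row) and a black tick at the median of the lines. *Ugt35B1* leads in the controls and *Ugt35C1* under stress, while the line means of *Ugt37A3* in controls spread widely, with 21.9 CPM in M12N3 and 0.0447 CPM in ZI197 before division by length. Values under 0.001 are drawn at 0.001.

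To see how far the baseline differed between lines, the 24 controls were tested for any difference between the 12 lines with edgeR's quasi-likelihood test (threshold here and below: Benjamini-Hochberg adjusted p of 0.05 over all genes tested). Of 28 members that passed the filter on low counts, 25 differed between lines, and among all genes tested 51.5% did. One of the 25, *Ugt307A1*, reached the filter level in the 2 controls of M9N1 alone. *Ugt35E1*, *Ugt316A1*, and *Ugt301D1* did not pass (adjusted p = 0.124, 0.129, and 0.399). *Ugt36E1*, the pheromone-related gene, had a mean of 91.8 CPM in M9D3 and of 16.7 CPM in ZI418, a ratio of 5.49 (adjusted p = 1.01e-08). It was high in the Cypriot lines C2D3 (78.5 CPM) and C2N1 (69.8 CPM), and low in KL01 (19.4 CPM) and KL02 (25.2 CPM). *Ugt35A1*, next to *Ugt35B1* in the 3R run, fell into a lower set of 7 lines with means between 11.4 and 19.4 CPM and a higher set of 5 lines with means between 25.1 and 36.5 CPM (KL01, M9N1, ZI197, ZI254, and ZI418; adjusted p = 2.00e-06). Both M9 and KL had 1 line in each set.

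Larger ratios were found among less abundant members. The control mean of *Ugt37A3* was 21.9 CPM in M12N3, 7.64 CPM in ZI273, 5.70 CPM in M12D3, 2.89 CPM in KL01, and 1.60 CPM in M9D3, against 0.0447 to 0.273 CPM in the remaining 7 lines (adjusted p = 1.53e-08). The 2 controls of M12N3 were themselves far apart, at 31.9 and 11.9 CPM. *Ugt302K1* had control means of 5.805 CPM in KL02, 4.78 CPM in C2D3, 3.60 CPM in M9D3, and 2.96 CPM in C2N1, and of at most 0.970 CPM in the other 8 lines (adjusted p = 6.74e-08). The highest and the lowest line, KL02 and KL01 (0.309 CPM), thus belong to 1 population. *Ugt36F1* was at 0.281 and 0.207 CPM in the 2 controls of ZI273, while the control means of the other lines lay between 2.81 and 12.35 CPM (adjusted p = 9.54e-06).

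The general response to MSB was tested over all lines with treatment as the only term. Of 25 members tested, 11 were up-regulated and 5 downregulated, while among all tested genes 27.3% were up-regulated and 26.2% downregulated. The median log2 fold-change was 0.48 over the tested members and 0.01 over all tested genes. The 2 largest increases belonged to neighbours on 2L that are hardly expressed in control heads. *Ugt37C2* (also named *Ugt36Ba*; 16794211 to 16796009) had 0.284 to 7.35 CPM under stress (median 2.01), against 0.0467 to 1.33 CPM in the controls (median 0.231). *Ugt37E1* (*Ugt36Bb*; 16796595 to 16798273) had 1.16 to 16.3 CPM under stress (median 3.09), against 0.0248 to 2.27 CPM in the controls (median 0.386). The stress and control libraries overlapped for both genes, although for both the mean under stress was above that of the controls in every one of the 12 lines. Their log2 fold-changes were 3.03 (SE 0.38, adjusted p = 3.39e-09) and 3.00 (SE 0.37, adjusted p = 1.96e-09). *Ugt37D1* (16799025 to 16801584), the third gene of this run, is expressed at 49.3 ± 20.2 CPM in the controls (SD, n = 24) and had a change of -0.02 ± 0.15 on the log2 scale (SE, adjusted p = 0.907).

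Among the abundant members, *Ugt49C1* (2R, 21215435 to 21217779) was up-regulated. It had 58.3 to 224 CPM under stress (median 138.3), against 32.0 to 70.3 CPM in the controls (median 44.0), a change of 1.56 ± 0.12 on the log2 scale (SE, adjusted p = 8.48e-15). The ranges overlapped only through KL02 and ZI254, where the lowest stress values were found. Its neighbour *Ugt49B1* (21212880 to 21214972) had 68.9 to 226 CPM under stress (median 145), against 38.9 to 113 CPM in the controls (median 75.5), a change of 0.97 ± 0.12 on the log2 scale (SE, adjusted p = 4.05e-09). *Ugt35C1*, the nicotine-related gene, had 58.1 to 462 CPM under stress (median 199), against 44.8 to 173 CPM in the controls (median 81.3), a change of 1.15 ± 0.20 on the log2 scale (SE, adjusted p = 4.13e-06). Its mean was higher under stress in 11 lines and lower in C2N1.

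*Ugt302E1* and *Ugt302C1*, neighbours in the 3R run, were up-regulated as well, with log2 fold-changes of 1.28 (SE 0.29, adjusted p = 0.000235) and 0.48 (SE 0.09, adjusted p = 1.07e-05), and both had a higher mean under stress in 12 of 12 lines. Their levels differed greatly. *Ugt302E1* had 0.493 to 3.82 CPM under stress (median 1.495), against 0.0467 to 2.63 CPM in the controls (median 0.593), whereas *Ugt302C1* had 61.7 to 144 CPM under stress (median 90.6), against 34.99 to 93.2 CPM in the controls (median 67.6). *Ugt305A1* (3L, 4059770 to 4061923) was low in both groups, with 0.202 to 1.73 CPM under stress (median 0.574), against 0.0232 to 1.65 CPM in the controls (median 0.249). It changed by 1.08 ± 0.31 on the log2 scale (SE, adjusted p = 0.00289), and without the Zambian lines it was 0.90 and no longer past the threshold (adjusted p = 0.0622). The remaining increases were those of *Ugt37C1*, *Ugt317A1*, and *Ugt36D1*, with log2 fold-changes of 0.98, 0.81, and 0.61.

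**Figure D2:**
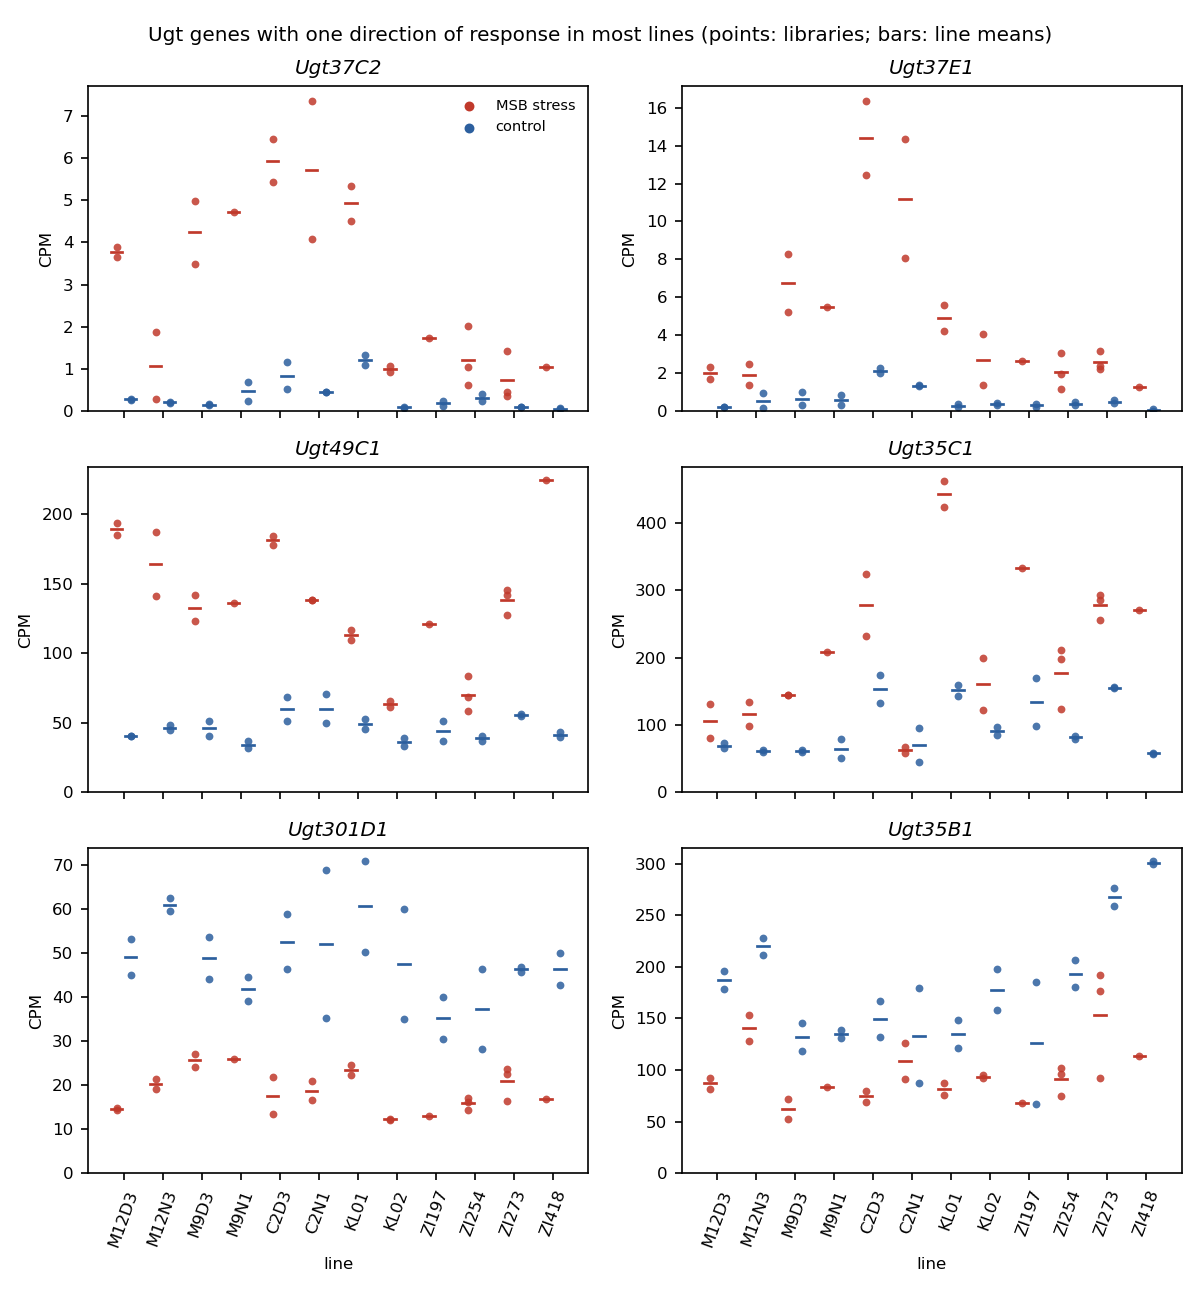
CPM of 6 *Ugt* genes in each library (points) with line means (bars), MSB stress in red to the left of control in blue, for each of the 12 lines. *Ugt37C2*, *Ugt37E1*, and *Ugt49C1* had higher means under stress in 12 of 12 lines and *Ugt35C1* in 11, whereas *Ugt301D1* and *Ugt35B1* had lower means in 12 of 12.

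Of the 5 downregulated members, *Ugt301D1* (2L, 18509560 to 18513512) had the clearest separation. It had 12.2 to 27.2 CPM under stress (median 17.1), against 28.3 to 71.0 CPM in the controls (median 46.4), a change of -1.34 ± 0.10 on the log2 scale (SE, adjusted p = 2.72e-15). Its stress and control libraries did not overlap. *Ugt36F1* (2L, 18819344 to 18822573) had 0.0693 to 6.18 CPM under stress (median 2.37), against 0.207 to 12.7 CPM in the controls (median 6.16), a change of -1.36 ± 0.35 on the log2 scale (SE, adjusted p = 0.00096). *Ugt35B1* (3R, 11168503 to 11170246), the most abundant member in the controls, had 52.8 to 192 CPM under stress (median 92.2), against 67.5 to 302 CPM in the controls (median 179). These groups overlapped, but the mean was lower under stress in 12 of 12 lines, at -0.82 ± 0.14 on the log2 scale (SE, adjusted p = 1.99e-06).

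*Ugt50B3* (2R, 5496674 to 5549543) also had a change of -0.82 ± 0.17 on the log2 scale (SE, adjusted p = 6.25e-05) and a lower mean under stress in 12 of 12 lines, with 5.38 to 21.3 CPM under stress (median 10.6), against 7.08 to 44.6 CPM in the controls (median 17.6). *Ugt316A1* (3L, 19059400 to 19062816) had the smallest change past the threshold, -0.10 (SE 0.04, adjusted p = 0.0461). It had 28.8 to 44.4 CPM under stress (median 37.5), against 33.7 to 47.98 CPM in the controls (median 42.0), and it had the most even control level across lines, with a ratio of 1.25 between the highest and the lowest. Its call was lost in 30 of 56 alternative fits. In these bulk libraries, fewer cells of a type and less RNA per cell cannot be told apart. The 4 fat body markers, of which *apolpp*, *Lsp2*, and *Mtp* were downregulated and *Apoltp* up-regulated, summed to between 1000 and 5270 CPM under stress and to between 3160 and 16000 CPM in the controls. The 4 glial markers summed to between 1220 and 2920 CPM under stress and to between 1610 and 3610 CPM in the controls, with *repo* (-0.68) and *Gs2* (-0.53) downregulated and the other 2 not past the threshold. The sum of the 4 listed Malpighian tubule markers did not overlap between treatments. It was 85.3 to 155 CPM under stress and 165 to 246 CPM in the controls. *Irk2* (mean of 111 CPM in the controls) and *Best2* (89.4 CPM) made up most of it and were downregulated (-0.88 and -0.54), while *NaPi-T* was up-regulated (0.35). *Uro* had means of 0.116 CPM under stress and 0.00596 CPM in the controls. The libraries are of heads, so this sum is not a measure of tubule cells. Of 6 midgut markers, *LManII* was downregulated (-0.64) and *Mal-A1* did not pass. The other 4 were under the filter, with means of at most 0.225 CPM under stress, so this list is not a measure of midgut cells either. Of 5 photoreceptor markers, *Arr2* was up-regulated (0.21) and *norpA* downregulated (-0.28), and none of the 4 neuronal markers passed. The part of these shifts in the decreases of *Ugt* genes was not tested.

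The run of *Ugt36* genes on 2L held genes with different responses. *Ugt36F1* was downregulated, *Ugt36D1* up-regulated, and *Ugt36E1* had a change of -0.04 ± 0.21 on the log2 scale (SE, adjusted p = 0.882). In the 3R run of 9, 2 members were up-regulated (*Ugt302E1* and *Ugt302C1*), 1 was downregulated (*Ugt35B1*), 3 did not pass (*Ugt302K1*, *Ugt35E2*, and *Ugt35A1*), and 3 were under the filter on low counts. Of the 9 tested members without a call, *Ugt37A3* had the largest log2 fold-change, 1.43 (SE 0.73, adjusted p = 0.0967), and *Ugt302K1*, at 0.56, *Ugt35E2*, at -0.38, and *Ugt36A1*, at 0.26, followed. With line as a block, 6889 of 10514 tested genes passed the threshold, against 5627 without the block. In that fit *Ugt37A3*, *Ugt302K1*, *Ugt35E2*, and *Ugt36A1* passed the threshold, with log2 fold-changes of 1.74, 1.04, -0.51, and 0.17. *Ugt36A1* (also named *Dot*) passed it also when either control of ZI254 was left out, with 0.32 without replicate 1 and 0.31 without replicate 2, and *Ugt37A3* when control replicate 1 of M12N3 was left out, with 2.09. The other 5, *Ugt37A1*, *Ugt37B1*, *Ugt37D1*, *Ugt35A1*, and *Ugt36E1*, had values between -0.04 and 0.08.

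A total of 10 members were not tested over all lines because of low counts. Their counts summed over the stress and the control libraries were 2681 and 76 for *Ugt37A2*, 345 and 175 for *Ugt303A1*, 188 and 188 for *Ugt35E1*, 113 and 78 for *Ugt304A1*, 49 and 77 for *Ugt307A1*, 37 and 35 for *Ugt35D1*, 17 and 57 for *Ugt303B3*, 5 and 19 for *Ugt303B1*, 5 and 9 for *Ugt303B2*, and 1 and 1 for *Ugt49B2*. Without the filter, edgeR called *Ugt37A2* and *Ugt303A1* up-regulated and *Ugt303B3* and *Ugt303B1* downregulated, in addition to the 16 members above, and with the filter but without the Zambian lines *Ugt37A2* passed as well.

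Each line was then compared with its own controls. Over 12 lines and 31 members that could be tested in at least 1 of them, 135 of 336 tests passed (40.2%), 100 of them up (74.1%) and 35 down. Over all tested genes 19.8% of such tests passed, and 52.1% of those that passed were up. In all, 25 members were called in at least 1 line (80.6% of those tested, against 60.4% of all tested genes). No member was called up-regulated in one line and downregulated in another, and 4.55% of all genes with a call were. Among the 135 calls, 9 were of *Ugt302E1*, *Ugt303A1*, *Ugt35E1*, or *Ugt37A2* in fits where the gene reached the filter level under stress alone. In the German lines, 14 of 28 members were called in M12D3 (34.4% of all tested genes were), 7 of 28 in M12N3 (12.6%), 18 of 31 in M9D3 (33.0%), and 17 of 31 in M9N1 (27.4%). In the Cypriot lines, 6 of 26 were called in C2D3 (14.7%) and 7 of 26 in C2N1 (9.22%). In the Malaysian lines, 16 of 27 were called in KL01 (24.9%) and 5 of 27 in KL02 (8.29%). In the Zambian lines, 12 of 28 were called in ZI197 (14%), 9 of 28 in ZI254 (16.9%), 13 of 28 in ZI273 (25.7%), and 11 of 28 in ZI418 (15.8%). For M9N1, ZI197, and ZI418, which had 1 stress library each, the spread was borrowed from the remaining groups in the fit.

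Several of these counts rest on single libraries. The count for M12D3 was 9 without its control replicate 1, and that for M12N3 was 3 without its control replicate 2. In C2D3 it was 11 without control replicate 1 of C2N1 and 10 without control replicate 2 of C2N1, which share the fit, and in C2N1 it was 4 without either of its stress libraries. In KL02 the count was 3 without control replicate 1, 3 without stress replicate 1, and 9 without stress replicate 2. Leaving out control replicate 1 or 2 gave 4 and 3 in ZI254, 6 and 6 in ZI273, and 6 and 7 in ZI418.

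Both ends of the response were shared widely. *Ugt49C1* was up-regulated in 12 of 12 lines, with log2 fold-changes between 0.79 (KL02) and 2.46 (ZI418), and *Ugt301D1* was downregulated in 12 of 12, with values between -1.97 (KL02) and -0.66 (M9N1). *Ugt37E1* passed in 11 lines and missed in M12N3 (1.69), and *Ugt37C2* passed in 10 and missed in M12N3 (2.32) and ZI254 (1.97). *Ugt49B1* passed in 9 lines, *Ugt35C1* and *Ugt37A2* in 8, and *Ugt302E1*, *Ugt302K1*, and *Ugt37A3* in 6. On the other side, *Ugt35B1*, *Ugt36F1*, and *Ugt50B3* passed in 6 lines each and had negative values in the other 6. Some members were called in a single line. *Ugt37B1* had a log2 fold-change of -1.52 in ZI273, with 5.24, 10.7, and 7.07 CPM in its stress libraries and 22.8 CPM in both controls, and *Ugt37D1* had one of -0.50 in the same line. *Ugt35E2* was called in M9D3 alone (-0.84) and *Ugt35E1* in M9N1 alone (2.20). The single stress library of M9N1 was the only one of the M9 fit in which *Ugt35E1* reached the filter level, so that this call is a description.

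**Figure D3:**
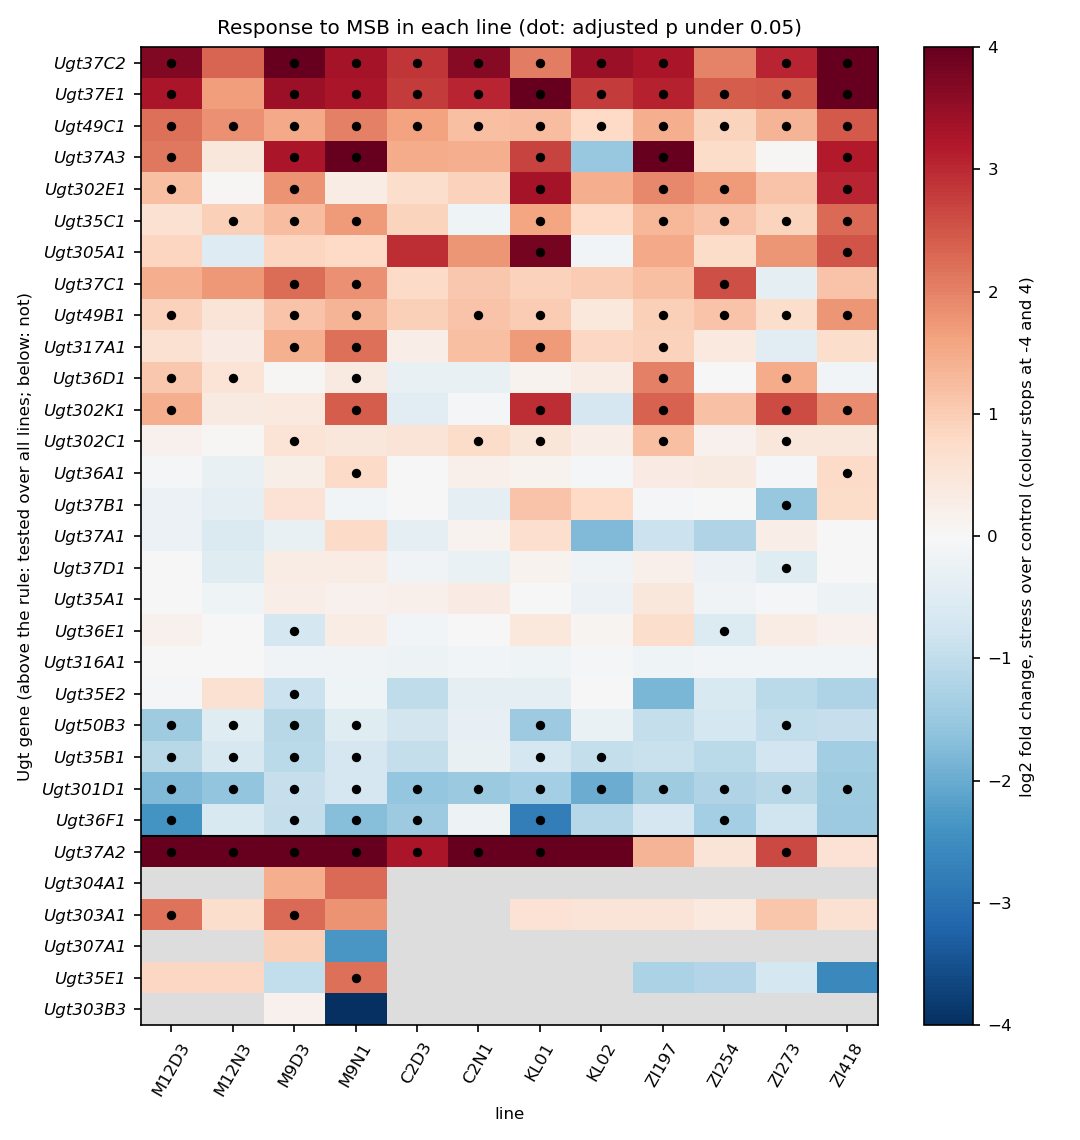
Log2 fold-change (stress over control, colour scale from -4 to 4) of 31 *Ugt* genes in each of the 12 lines, with a black dot where the adjusted p was under 0.05 and grey where the gene was not tested. *Ugt49C1* (red) and *Ugt301D1* (blue) carry a dot in 12 of 12 lines, while the dots of *Ugt37A2*, *Ugt37A3*, and *Ugt302K1* are missing from 4, 6, and 6 lines.

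Whether the size of the response differed between lines was tested with all line by treatment terms together. Of 31 members tested, 10 passed, and 9.66% of all tested genes did. The smallest p was that of *Ugt36D1* (2L, 18823548 to 18826716; adjusted p = 3.32e-06). It had 165 CPM in the single stress library of ZI197, against 37.4 and 45.3 CPM in its controls, and 53.0, 63.3, and 87.1 CPM under stress in ZI273, against 25.4 and 24.3 CPM in its controls. M12D3 had 62.96 and 70.7 CPM under stress, against 30.4 and 31.8 CPM in its controls. No such change was seen in ZI254 (25.6, 32.3, and 33.7 CPM under stress, against 31.6 and 29.4 CPM in controls) or in ZI418, so that the log2 fold-changes of the 4 Zambian lines were 2.01, 1.49, 0.02, and -0.12 for ZI197, ZI273, ZI254, and ZI418.

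*Ugt302K1* (3R, 11151026 to 11153849; adjusted p = 3.99e-05) was called in 6 lines, all with a low baseline. In KL01 it had 2.38 and 2.27 CPM under stress, against 0.201 and 0.416 CPM in the controls, and in ZI273 it had 2.99, 1.82, and 1.84 CPM under stress, against 0.351 and 0.396 CPM in the controls. In KL02, where the baseline was highest, it had 3.54 and 3.88 CPM under stress, against 6.68 and 4.93 CPM in the controls. The line means thus lay between 0.870 and 4.75 CPM under stress and between 0.309 and 5.805 CPM in the controls. The 6 lines in which it was up-regulated (M12D3, M9N1, KL01, ZI197, ZI273, and ZI418) had control means of at most 0.970 CPM, as had M12N3 and ZI254, where it did not pass, and the 4 lines above that had log2 fold-changes between -0.66 and 0.41. A fold-change and the baseline it is taken over share the control libraries, so this order is a description of the levels.

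*Ugt37A2* (3R, 12739642 to 12741417; adjusted p = 0.000452) was at or near 0 in the controls of all lines, the highest library having 0.316 CPM. Under stress it had 8.22 and 7.43 CPM in M12D3, 7.36 and 7.80 CPM in KL01, 6.76 and 4.44 CPM in M12N3, and 5.48 and 4.91 CPM in M9D3. Lower values were found in C2N1 (1.65 and 1.32 CPM), M9N1 (1.07 CPM), ZI273 (0.741, 0.693, and 1.17 CPM), and C2D3 (0.671 and 0.332 CPM). The 4 remaining lines stayed below 0.3 CPM, at 0.216 and 0.0529 CPM in KL02, 0.292 CPM in ZI197, 0.161 CPM in ZI418, and 0.0739, 0.0248, and 0.125 CPM in ZI254. As a share of the library totals, the stress counts were 349-fold the control counts in M12D3 (741 and 2 counts, exact 95% interval 96.3 to 2890), 92.6-fold in KL01 (42.3 to 253), and 21.8-fold in M12N3 (13.8 to 36.5). The controls of M9D3, M9N1, and KL02 had no count, and taking 3 counts over both controls as the floor, the level under stress was at least 179-fold higher in M9D3, at least 26.8-fold higher in M9N1, and at least 2.79-fold higher in KL02, where the test did not pass. In ZI197, ZI254, and ZI418 the ratios were 2.59 (1.05 to 6.59), 1.43 (0.398 to 6.34), and 1.38 (0.404 to 4.34). These intervals cover counting error only.

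*Ugt37A3* lies next to *Ugt37A2* on the opposite strand (12741958 to 12743680; adjusted p = 0.00561), with no shared exon. In M9D3 it had 16.5 and 13.7 CPM under stress, against 2.19 and 1.00 CPM in the controls, and in its partner M9N1 it had 1.00 CPM under stress, against 0.0481 and 0.0540 CPM in the controls. KL01 had 9.45 and 27.3 CPM under stress, against 1.81 and 3.97 CPM in the controls, while KL02 stayed below 0.25 CPM in all 4 libraries. The 2 genes were not called in the same lines throughout. In ZI273, *Ugt37A2* was up-regulated (log2 fold-change 2.64), but *Ugt37A3* had 5.32, 10.3, and 7.22 CPM under stress, against 5.10 and 10.2 CPM in the controls. In the fit of the Zambian lines, *Ugt37A2* reached the filter level under stress alone, so that its call in ZI273 is a description. In ZI197 and ZI418, *Ugt37A3* was up-regulated (4.36 and 3.16) and *Ugt37A2* had values of 1.37 and 0.58 that did not pass. Without the Zambian lines, the test of the response of *Ugt37A3* between lines no longer passed (adjusted p = 0.0729).

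The response of *Ugt49C1* also differed between lines (adjusted p = 0.000612), although it was up-regulated in each. Its stress level was 224 CPM in the single library of ZI418 and 185 and 194 CPM in M12D3, but 61.1 and 65.5 CPM in KL02 and 83.2, 58.3, and 68.4 CPM in ZI254. The remaining calls were those of *Ugt317A1* (adjusted p = 0.00500), *Ugt36E1* (0.0166), *Ugt305A1* (0.0474), *Ugt35C1* (0.0480), and *Ugt302C1* (0.0490). *Ugt36E1* was downregulated in M9D3 (62.3 and 49.5 CPM under stress, against 92.2 and 91.4 CPM in controls) and in ZI254 (23.5, 21.8, and 20.02 CPM under stress, against 33.9 and 30.5 CPM in controls). The last 3 genes are near the threshold, and their calls were lost in 36, 30, and 33 of 52 alternative fits. With a threshold of 0.01 there were 6 calls, and without the Zambian lines there were 5.

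**Figure D4:**
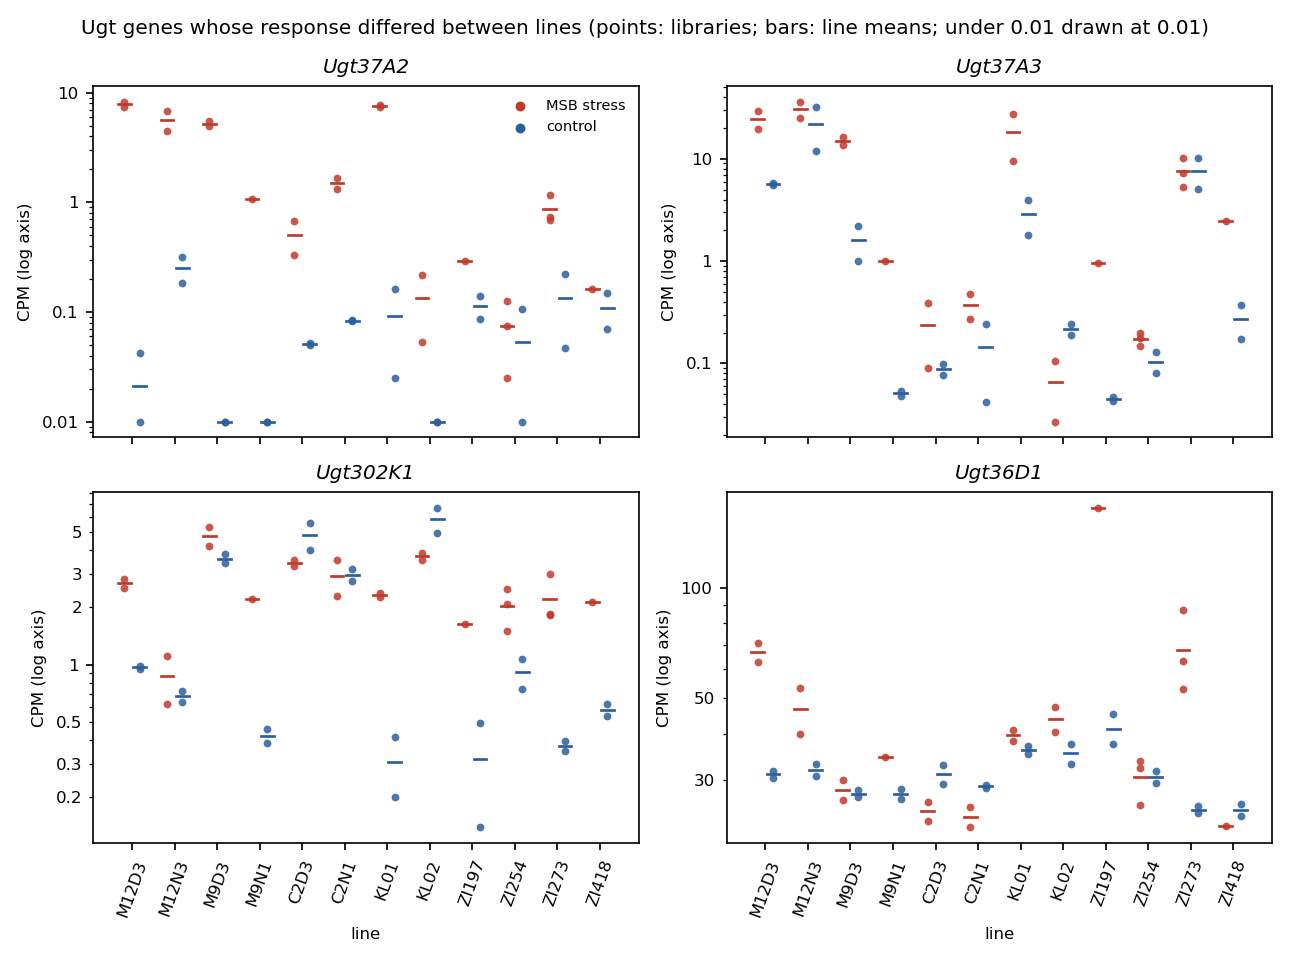
CPM on a log axis of the 4 *Ugt* genes *Ugt37A2*, *Ugt37A3*, *Ugt302K1*, and *Ugt36D1* in each library (points) with line means (bars), MSB stress in red to the left of control in blue. *Ugt37A2* exceeds 4 CPM under stress in M12D3, M12N3, M9D3, and KL01 and stays below 0.3 CPM in KL02, ZI197, ZI254, and ZI418.

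The comparison of the ancestral with the derived range used a range by treatment term, with line in the model. Only *Ugt37A2* of 31 members passed, and 0.467% of all tested genes did. The response in Zambian lines was smaller by a log2 term of -4.14 (SE 0.71, adjusted p = 0.00326) than that in cosmopolitan lines. Means under stress were 0.0747 to 0.868 CPM in the 4 Zambian lines and 0.1345 to 7.825 CPM in the 8 cosmopolitan lines, so that single lines overlapped, with KL02 and C2D3 inside the Zambian range. This gene failed the filter over all lines. In the range and line by treatment fits it reached the filter level in 17 stress libraries and 1 control library, almost only in the treatment where it is high, so that both of its calls are given as a description. The term was past the threshold in all 54 alternatives that gave a value, including those that left out 1 library. These refits reuse the same lines and largely the same libraries, so they are not independent evidence for a difference between ranges. The Zambian lines were also exposed for a shorter time, and range and exposure time cannot be told apart. The next smallest p was that of *Ugt302K1* (1.302, adjusted p = 0.167).

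For the *MtnA* deletion, the genotype by treatment term over the 8 lines outside Zambia was past the threshold for 0 of 31 members in edgeR, and for 0.127% of all tested genes. An unadjusted p under 0.05 was found for 7 members, and the share of all tested genes under it is not given here. DESeq2 called 1 member, *Ugt50B3*, also without a share over all genes, so that both counts are a description. In edgeR this gene had a log2 term of -0.77 (SE 0.19, adjusted p = 0.0820), a stronger decrease in deletion lines. It passed without stress replicate 1 of C2D3 (-0.86, adjusted p = 0.0379), and without the single stress library of M9N1 both *Ugt50B3* (-0.79, adjusted p = 0.0331) and *Ugt37A3* (2.21, adjusted p = 0.0239) passed. The log2 fold-changes of its response were -1.42 in M12D3, against -0.50 in M12N3, and -1.12 in M9D3, against -0.48 in M9N1, and these 4 passed. They were -0.72 in C2D3, against -0.34 in C2N1, neither of which passed, and -1.44 in KL01, which passed, against -0.27 in KL02, which did not. In M12 the values under stress were 5.91 and 6.13 CPM in M12D3, against 12.8 and 11.8 CPM in M12N3, and those in the controls 14.6 and 17.3 CPM in M12D3, against 16.95 and 17.8 CPM in M12N3. In C2 the values under stress were 15.1 and 12.4 CPM in C2D3, against 10.6 and 17.25 CPM in C2N1, and those in the controls 23.0 and 23.5 CPM in C2D3, against 14.3 and 21.0 CPM in C2N1, so that the lines overlapped under stress.

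Within the pairs, the deletion and the nondeletion line were compared directly in each treatment. In M12, 5 of 28 members differed under stress (8% of all tested genes did) and 0 of 28 in the controls (0.1%), where 6 had an unadjusted p under 0.05 and DESeq2 called 0. In M9, the near-isogenic pair with the most remaining sequence differences, 3 of 31 differed under stress (1.97%) and 6 of 31 in the controls (2.28%). In C2, edgeR called 0 of 26 under stress (0.204%) and 0 of 26 in the controls (0.232%), with an unadjusted p under 0.05 for 2 and 5 members and DESeq2 calls for 1 and 2. For the unadjusted p and DESeq2 counts of M12 and C2, the shares of all genes are not given here, so they are a description. *Ugt35C1* had 324 and 231 CPM in C2D3, against 58.1 and 67.0 CPM in C2N1, under stress, a log2 fold-change of 2.18 (adjusted p = 0.0731). In KL, where the lines are not isogenic, 16 of 27 differed under stress (21.7%) and 9 of 27 in the controls (10.9%). The counts for M12 under stress and for M9 were small and moved with single libraries. Under stress the count for M12 was 1 or 2 without M12D3 replicate 1 or 2, and 10 or 3 without M12N3 replicate 1 or 2. For M9 under stress it was 1 without either M9D3 stress library, and 5 or 6 without control replicate 1 or 2 of M9N1. For the M9 controls it was 3 or 2 without M9D3 replicate 1 or 2, and 2 without M9N1 replicate 1. For C2, 1 member was called under stress without either control of C2N1, and 1 in the controls without control replicate 2 of C2N1.

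The members that differed in M12 under stress were *Ugt50B3* (-1.03), *Ugt35B1* (-0.69), *Ugt36F1* (-1.88), and *Ugt301D1* (-0.47), lower in the deletion line, and *Ugt302K1* (1.63), higher in it. The first 4 are genes that MSB lowered over all lines. In the M9 controls, *Ugt302K1* had 3.79 and 3.40 CPM in M9D3, against 0.385 and 0.459 CPM in M9N1, a change of 3.07 ± 0.26 on the log2 scale (SE, adjusted p = 0.000965). *Ugt37A3* was higher by 4.85 and *Ugt36E1* by 0.86 in M9D3, while *Ugt35A1* had a value of -0.88. *Ugt307A1* was called as well, but it reached the filter level only in the M9N1 controls, where it had 25 and 22 counts, against 3 and 1 in the M9D3 controls, so that this call is a description. *Ugt35E2* was higher in M9D3 by 1.23. Under stress, *Ugt37A3* (3.86), *Ugt37A2* (2.23), and *Ugt302E1* (2.41) were higher in M9D3, where M9N1 had 1 library. Of these, *Ugt37A2* reached the filter level of the M9 fit under stress alone, so that its call is a description. With the left-out M9N1 stress library in the fit, there were 0 calls in the M9 controls and 1 under stress.

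In KL, *Ugt37D1* had 117 and 114 CPM in KL01, against 37.7 and 44.3 CPM in KL02, under stress, and 116 and 97.9 CPM in KL01, against 46.4 and 43.5 CPM in KL02, in the controls. KL01 was higher in both treatments, with log2 fold-changes of 1.51 (SE 0.13) under stress and 1.23 (SE 0.13) in the controls. *Ugt37B1* showed the opposite order, with 3.45 and 2.97 CPM in KL01, against 49.0 and 27.8 CPM in KL02, under stress, and 1.63 and 1.31 CPM in KL01, against 15.1 and 28.1 CPM in KL02, in the controls. Among the 9 differences past the threshold in the KL controls, the largest were those of *Ugt302K1* (-4.28), *Ugt37B1* (-3.88), *Ugt37C2* (3.73), and *Ugt37A3* (3.68), of which all but *Ugt302K1* also passed under stress. The fitted value of *Ugt37A2*, without a count in the KL02 controls, was larger and did not pass (adjusted p = 0.188). Differences past the threshold under stress but not in the controls included those of *Ugt35C1* (1.48) and *Ugt49C1* (0.86), which were both higher in KL01. *Ugt37A2* was called higher in KL01 as well (5.95). In this fit it reached the filter level only in the KL01 stress libraries, so that this call is a description. Whether these differences changed between treatments was not tested for single pairs.

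**Figure D5:**
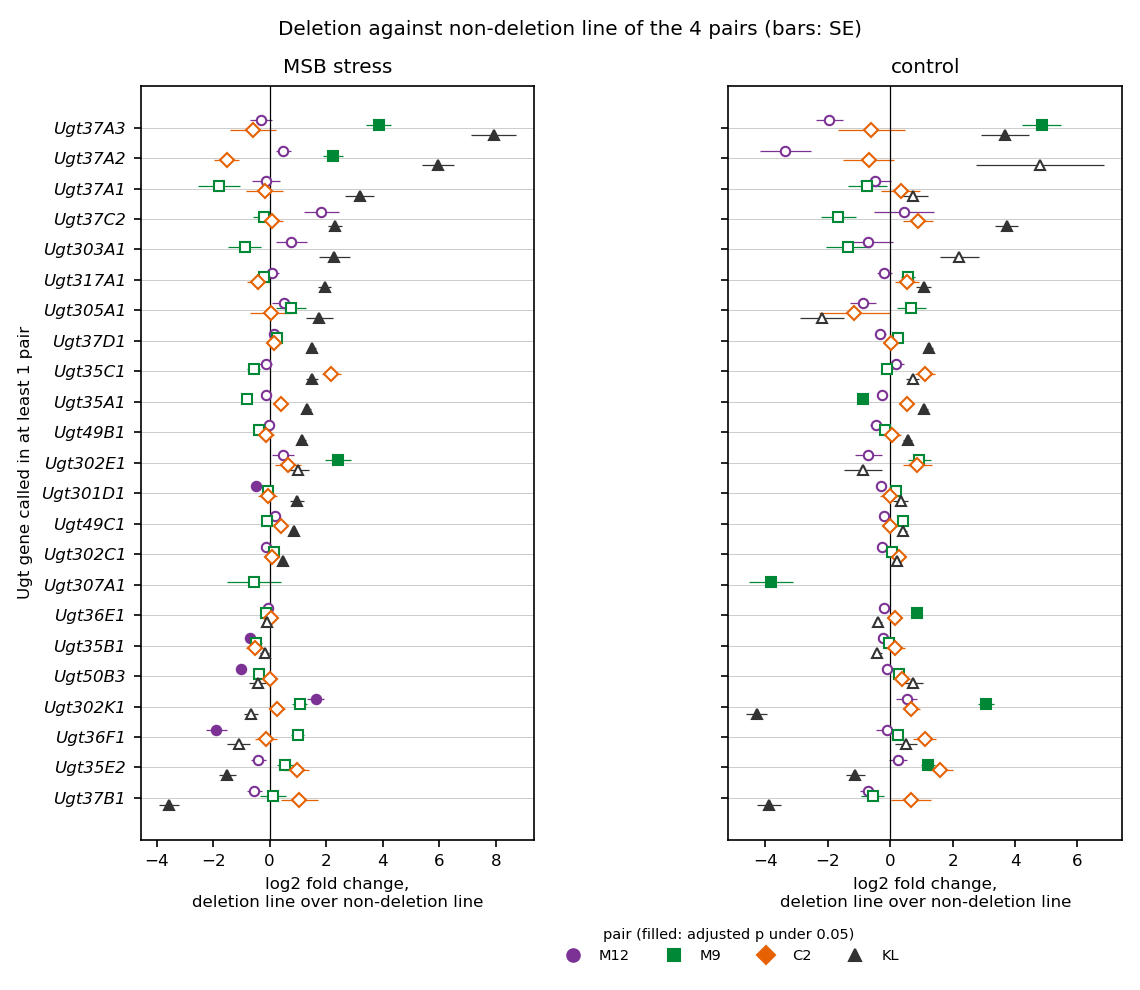
Log2 fold-change of the deletion line over the nondeletion line for each *Ugt* gene called in at least 1 of the pairs M12, M9, C2, and KL, under MSB stress (left) and in controls (right), with SE bars and filled symbols where the adjusted p was under 0.05. Most filled symbols are those of KL, with 16 under stress and 9 in the controls, and C2 has none. Values whose SE could not be computed are not drawn.

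Genes that act beside the glycosyltransferases were counted in the same fit over all lines, in which 27.3% of all tested genes passed as up-regulated, 26.2% passed as downregulated, and the median change was 0.01 on the log2 scale. The lists hold at most 7 genes, and their counts are a description. Their medians were -0.06 for the supply of UDP-sugars, -0.09 for sulfation, 0.25 for export, -0.33 for cleavage, and 0.12 for regulators. Of 5 genes for the supply of UDP-sugars, *sgl*, which makes UDP-glucuronate, was up-regulated (0.57), and *UGP*, which makes UDP-glucose, was downregulated (-1.03, adjusted p = 2.72e-10), as was *Pgm1* (-0.24). The mean of *UGP* was 175 ± 50.7 CPM under stress (SD, n = 23) and 365 ± 101 CPM in the controls (SD, n = 24). Of 4 tested genes of sulfation, *St4* was up-regulated (1.39), while *St1* (-1.45) and *Papss* (-0.26), which makes the sulfate donor, were downregulated. Of 7 ATP-binding cassette transporters listed under export, *MRP* (1.00), *CG4562* (0.94), and *Mdr50* (2.74) were up-regulated and the other 4 did not pass. Whether each of them carries sugar conjugates was not tested. Both tested genes of the β-glucuronidase family, *CG2135* (-0.31) and *CG15117* (-0.36), which cleave sugar conjugates, were downregulated. Among 7 regulators, 5 were up-regulated, *Keap1* (1.68) and *cnc* (0.39), the fly counterparts of the mammalian oxidative stress sensor and its transcription factor, *maf-S* (0.19), *Hr96* (0.12), and *Met* (0.10), and the other 2 did not pass.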

How the data were processed

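RNA of whole heads was sequenced by the authors as poly-A libraries with paired reads of 150 bases on a NovaSeq instrument and mapped with NextGenMap to the FlyBase transcriptome of Release 6. The deposited table holds unnormalized read counts for each gene, and the submitters' processing notes name DESeq2 1.28.1 and R 4.0.0. The counting tool and the treatment of strand and of reads with several matches are not given in the sources used here.

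The 47 libraries were grouped by line and treatment from their labels. Library M9N1 stress replicate 1 was excluded because its distance from the other stress libraries in a principal component analysis of the 500 most variable genes was 54.77, against at most 17.88 for any other. The authors excluded 1 M9 stress library without giving its number, so that the choice rests on this distance. No 2 libraries of a group agreed within sampling noise.

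Counts were tested with edgeR 4.0.16 (quasi-likelihood F test, TMM scaling, filterByExpr by the groups of each fit) in R 4.3.3, with Benjamini-Hochberg adjustment over all genes tested and a threshold of 0.05. The SE was taken from the log2 fold-change and its F statistic. Fits were treatment over all lines, line in the controls, line by treatment, range by treatment, genotype by treatment in the 8 lines outside Zambia, and each line or pair within its population. Scripts were tested on simulated data. Alternatives were DESeq2 1.42.0, DESeq2-type size factors, no filter, a threshold of 0.01, replicate number or line as a block, all 48 libraries, 1 fit over all lines, no Zambian or no Malaysian lines, and leaving out each library. For line by treatment and for single lines, 44 libraries were left out in turn. The only stress libraries of M9N1, ZI197, and ZI418 stayed in. For the pairs under stress 46 were left out, all but that of M9N1. A fit without the 2 next most distant stress libraries was added after the data were seen.

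Every member is accounted for. Members described by line are the 6 largest increases and all decreases past the threshold over all lines, the 4 highest per kb in the controls, and the 4 with the smallest p of the tests between control lines and of line by treatment. The members, this rule, and the lists of pathway genes and markers were chosen with earlier results of these data known, and members named beyond the rule were chosen after their values were seen.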

Additional observations from a re-analysis of the deposited data

Results flagged for a closer look

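The response to MSB differed between lines for 10 *Ugt* genes in edgeR's test of the line by treatment terms, with adjusted p = 3.32e-06 for *Ugt36D1*, 3.99e-05 for *Ugt302K1*, 0.000452 for *Ugt37A2*, 0.000612 for *Ugt49C1*, 0.005 for *Ugt317A1*, 0.00561 for *Ugt37A3*, 0.0166 for *Ugt36E1*, 0.0474 for *Ugt305A1*, 0.048 for *Ugt35C1*, and 0.049 for *Ugt302C1*. Among all tested genes 9.66% passed this test. The range by treatment term of *Ugt37A2* also passed in edgeR (adjusted p = 0.00326), and 0.467% of all tested genes did. This gene reached the filter level in these fits in 17 stress libraries and 1 control library, so that both of its calls are a description. The Zambian lines were also exposed for a shorter time, and range and exposure time cannot be told apart.

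The excluded M9N1 stress library held 8 members above their level in each of the other libraries. It had 38.1 CPM of *Ugt305A1*, where the highest other library had 1.73 CPM. The 3 neighbours *Ugt303B3*, *Ugt303B1*, and *Ugt303B2* were at 5.58, 2.55, and 1.56 CPM in it and at no more than 0.299, 0.0983, and 0.0815 CPM elsewhere. *Ugt303A1* was at 2.25 CPM (at most 1.09 elsewhere), *Ugt304A1* at 0.717 (0.423), *Ugt35D1* at 0.222 (0.213), and *Ugt49B2* at 0.124 (0.0247). The summed testis markers were at 1380 CPM in this library and at no more than 323 CPM in any other, and the accessory gland markers at 112 CPM and at no more than 0.594 CPM. In the other libraries *bol* made up most of the testis sum, with means of 229 CPM under stress and 246 CPM in the controls. The remaining testis markers had means of at most 0.227 CPM there. The part of these tissues in the values was not tested.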

How the results depend on the processing

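With a threshold of 0.01, the number of members whose response differed between lines was 6, the gene-by-line calls were 88, and the calls between deletion and nondeletion lines summed over the 4 pairs were 14 under stress and 7 in the controls (10, 135, 24, and 15 at 0.05). Without the Zambian lines, 5 members differed between lines. With all 48 libraries the pair calls in the controls were 9, and *Ugt305A1* had a log2 fold-change of 2.90 over all lines. DESeq2 gave 1 member with a genotype by treatment term. Leaving out 1 library at a time gave 11 to 12 members called higher and 4 to 5 called lower over all lines, 24 to 27 differing between control lines, 7 to 12 with a response that differed between lines, 126 to 148 gene-by-line calls, 0 to 2 with a genotype term, 1 with a range term, and 19 to 29 pair calls under stress and 11 to 16 in the controls. The line by treatment and gene-by-line ranges do not cover the only stress libraries of M9N1, ZI197, and ZI418, which stayed in.

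Some uncalled fold-changes near 0 over all lines changed sign. *Ugt35A1* was 0.0032 with all 48 libraries, 0.047 with line as a block, 0.038 without Zambian lines, 0.021 without the 2 next most distant libraries, and between -0.093 and 0.013 with 1 library left out. *Ugt36E1* was 0.020 with the replicate block, 0.043 with line as a block, 0.0012 without the 2 libraries, and -0.11 to 0.031 with 1 left out. *Ugt37A1* was -0.011 with the replicate block, -0.22 with line as a block, and -0.068 to 0.17 with 1 left out. *Ugt37B1* was -0.0011 with line as a block, -0.027 without the 2 libraries, and -0.21 to 0.21 with 1 left out. *Ugt37D1* was 0.0063 with the replicate block, 0.032 without Zambian lines, 0.021 without the 2 libraries, and -0.13 to 0.063 with 1 left out. The causes were not tested. Leaving out M12N3 stress replicate 2 and KL02 stress replicate 2, chosen after seeing the data, gave 11 members called higher and 5 lower over all lines, 8 with a response that differed between lines, and 145 gene-by-line calls.

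The libraries were not treated as paired by replicate number in the main fits. The correlation of same-numbered deviations lay between -0.162 and 0.273 over 9 lines, which cannot settle whether single lines were paired. With the replicate block, 11 members were called higher and 4 lower, 9 differed in response between lines, and 125 gene-by-line calls were made. Depth limits the members below about 1 CPM, for which a library holds few counts.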
